A study of Drosophila melanogaster with 20 samples.

Results

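The genes of fat storage and fat breakdown were followed in whole larvae of the fruit fly Drosophila melanogaster that carry altered alleles of the mitochondrial carrier of S-adenosylmethionine, the compound from which cells take methyl groups. They were chosen by symbol from a list of lipases, lipid droplet proteins, enzymes of fatty acid and triglyceride synthesis, a hormone receptor and a nuclear receptor. All 10 were found among the 14081 genes of the deposited tables: bmm, Hsl, Lip4, Lsd-1, Lsd-2, mdy, ACC, FASN1, AkhR and Hnf4. All 10 also passed the filter on low values in each comparison.

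Larvae keep triglyceride in lipid droplets, most of them in the fat body, the organ that serves the fly as liver and adipose tissue. Fatty acids are made from acetyl-CoA by ACC and FASN1, joined to a glycerol backbone by acyltransferases such as mdy, and held in droplets coated by the perilipins Lsd-1 and Lsd-2. Lipases such as bmm and Hsl release them again, adipokinetic hormone acting through AkhR calls for that release, and the nuclear receptor Hnf4 turns on genes of lipid breakdown.

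A total of 4 groups of larvae were sequenced, 5 libraries each. The I172G line (genotype label DmSAMC.I172G) is called a mild mutant in the labels, while the P223L line (DmSAMC.P223L) and the SAMC-null line (DnSAMC.M1fs;M39*) are both called severe, and the fourth group is the control. All 20 libraries came from larvae of the wDah background, 4 days old and kept at 25 °C, from RNA of total larvae depleted of ribosomal RNA. The lines were engineered in the genome. The labels give an age in days but no developmental stage, no number of larvae per library and no word on separate cultures, and p-values therefore measure the spread between libraries alone. All 3 lines were set against 1 set of controls, and each allele is seen in 1 line, where allele and line cannot be told apart. In bulk RNA of whole larvae, fewer cells of a type and less RNA per cell cannot be told apart either. Only age in days was matched, so a difference in developmental stage and an effect of the allele cannot be told apart.

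Values are normalised counts, that is, read counts per gene scaled between libraries by the authors. Differences are log2 fold changes of value + 1 with their standard error (SE), and a gene is called where limma's adjusted p is under 0.05. The counts summed to 22090000 to 36610000 per library, with 22090000 to 26080000 in both severe lines and 32990000 to 36610000 in I172G and control. Rescaling each library to the same sum moved the median log2 fold change of all genes by 0.41 for P223L, by 0.60 for SAMC-null and by -0.03 for I172G, each against control. Where that rescaling turns the direction of a gene, its value is given beside the result. Rescaling by the median ratio between libraries gave median shifts of 0.005 for P223L, 0.013 for SAMC-null and 0.029 for I172G. It turned 1 of the 60 fold changes of the 10 genes, where equal sums turned 13. The library sums include the fat body markers given below. CG4743, the carrier gene itself, had 171.5 ± 22.7 normalised counts in I172G, 207 ± 24.6 in P223L, 112 ± 12.8 in SAMC-null and 125 ± 20.2 in control (SD, n = 5), and a total per gene does not show an amino acid change or a frameshift. CG4743 was called higher than control in I172G (log2 fold change 0.46, limma adjusted p = 0.0285) and P223L (0.73, adjusted p = 0.000218). In SAMC-null it was not called. Among the control libraries, replicate 4 had the lowest mean correlation with its own group (r = 0.969) and the highest value of 6 of the 10 genes, and none of the 30 calls against control was gained or lost without it.

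Markers of the fat body moved with the severe lines. The list held 7, namely the storage-protein genes Lsp1alpha, Lsp1beta, Lsp1gamma, Lsp2, Fbp1 and Fbp2, which fat body cells switch on late in larval life, and apolpp. Their sum was 4948300 to 5397900 normalised counts in I172G, 157990 to 164340 for P223L, 67165 to 81250 for SAMC-null and 4077600 to 4868900 in control. All 7 were lower than control in both severe lines, Fbp1 stayed under 10 in every severe library (up to 4.42 in P223L and 2.54 in SAMC-null), and none was at 0 in every library of a line. Their median log2 fold change was -15.16 in P223L and -15.03 in SAMC-null, but that of apolpp was -1.71 and -2.83. Oenocytes, the cells that share lipid work with the fat body, had a marker sum of 14149 to 16185 in P223L and 11425 to 11950 in SAMC-null, against 26352 to 30314 in control. In both severe lines 4 of the 5 oenocyte markers were lower, and salm was higher, with a mean of 400.4 normalised counts in P223L and 423 in SAMC-null, against 307 in control. Of the other lists, 6 of 7 midgut, 6 of 6 muscle, 5 of 5 testis and 3 of 4 hemocyte markers were lower in P223L than in control, and 5 of 6 neuron markers were higher. In SAMC-null, 5 of 7 midgut, 6 of 6 muscle, 5 of 5 testis and 4 of 4 hemocyte markers were lower, and again 5 of 6 neuron markers were higher. The midgut marker lab was higher in both severe lines. Its mean was 182.1 normalised counts in P223L and 184.1 in SAMC-null, against 121.4 in control. In I172G, 5 of 5 testis markers and 5 of 7 midgut markers were lower and 3 of 7 fat body markers were higher. There 1 neuron, 1 muscle and 1 oenocyte marker were also higher, and 1 oenocyte marker was lower. Among all tested genes, 14.6% were higher and 17.6% lower in I172G, 36.3% and 42.4% in P223L, and 38.2% and 43.5% in SAMC-null. The part of the marker shifts, or of any difference in stage, in the results on fat genes was not tested.

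The lipase genes rose in both severe lines, and 2 of the 3 also rose in I172G. bmm (FBgn0036449, chromosome arm 3L from 14776496 to 14786412, minus strand, in the BDGP6.54 annotation) encodes brummer, the main triglyceride lipase of the fat body and counterpart of the mammalian adipose triglyceride lipase. I172G larvae held 1186, 1399, 1632, 1807 and 1968 normalised counts of bmm, and P223L larvae held 2227, 2266, 2446, 2583 and 2671. SAMC-null larvae held 5008, 5784, 5406, 5048 and 5357, against 1062, 951, 1019, 1363 and 711 in control larvae. All libraries of both severe lines lay above all controls, 4 of 5 I172G libraries did so, and no SAMC-null library overlapped a P223L library. Over control, bmm had a log2 fold change of 0.65 ± 0.172 in I172G (SE; limma adjusted p = 0.0161), 1.28 ± 0.135 in P223L (adjusted p = 2e-06) and 2.41 ± 0.132 in SAMC-null (adjusted p = 4.31e-09). In linear terms bmm was 5.31-fold higher in SAMC-null than in control and 2.43-fold higher in P223L. Each step in the order SAMC-null, P223L, I172G, control passed the test.

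Lip4 (FBgn0032264, chromosome arm 2L from 10527572 to 10531778, plus strand), an acid lipase gene known as a target of the transcription factor FOXO, had the largest change of the 10 genes in all 3 lines. I172G larvae held 1019, 748, 988, 897 and 1139.6 normalised counts and P223L larvae 2577, 2482, 2531, 2519.6 and 2570.3. SAMC-null larvae held 3567, 3689.8, 3555, 3577 and 3358, against 289, 448, 181, 594 and 302 in control larvae. No 2 of the groups overlapped, and the controls were the most spread, with a coefficient of variation of 1.54% in P223L and 3.38% in SAMC-null, against 44.2% in control. Over control, Lip4 rose by 1.500 ± 0.264 on the log2 scale in I172G (SE; limma adjusted p = 0.00232), 2.92 ± 0.242 in P223L (adjusted p = 2.14e-07) and 3.40 ± 0.244 in SAMC-null (adjusted p = 5.15e-08), or 10.6-fold in SAMC-null.

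Hsl (FBgn0034491, chromosome arm 2R from 20257650 to 20261726, plus strand), the hormone-sensitive lipase that moves onto droplets under adipokinetic hormone, changed less. I172G larvae held 673, 687, 790.0, 769.7 and 872 normalised counts and P223L larvae 1231, 1172, 1175, 1223 and 1217. SAMC-null larvae held 1447, 1428, 1438, 1404 and 1300.1, against 705, 709.8, 678, 609 and 589 in control larvae. The severe lines lay above all control and I172G libraries, while I172G and control overlapped. Hsl rose by 0.87 ± 0.062 on the log2 scale in P223L (SE; limma adjusted p = 4.77e-08) and by 1.09 ± 0.063 in SAMC-null (adjusted p = 6.61e-09), both over control. In I172G its log2 fold change of 0.20 over control was not called (95% confidence interval 0.01 to 0.39, adjusted p = 0.0952).

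**Figure D1:**
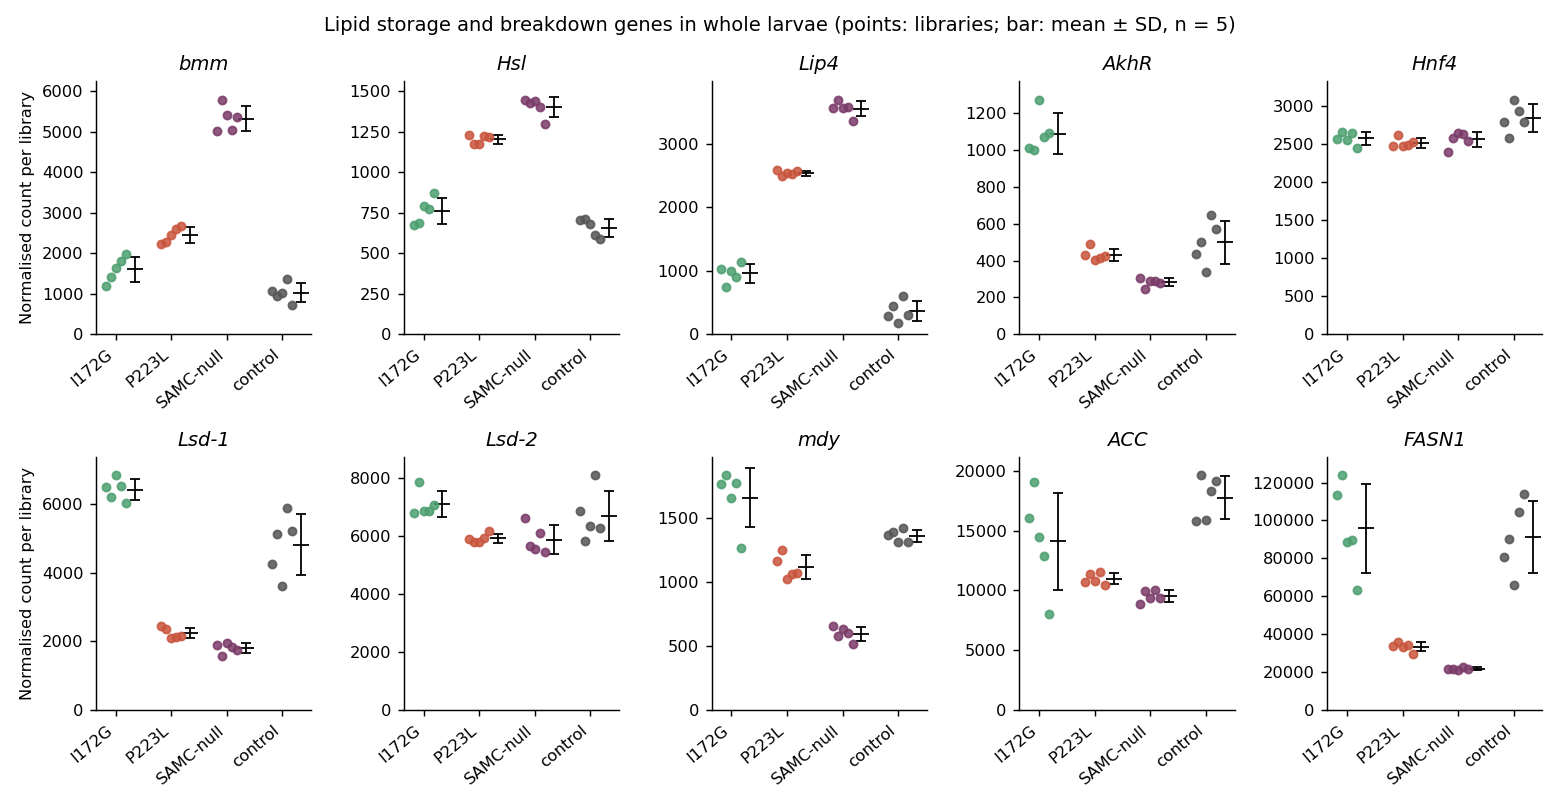
Normalised counts (y axis, linear from 0) of the 10 genes in each library of I172G, P223L, SAMC-null and control larvae (x axis); points are libraries, and bars are mean ± SD (n = 5). The lipases bmm, Hsl and Lip4 stand highest in SAMC-null, FASN1, Lsd-1 and mdy stand lowest there, and Lsd-2 and Hnf4 differ little between groups.

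The droplet proteins moved apart from each other. Lsd-1 (FBgn0039114, chromosome arm 3R from 23763857 to 23766662, plus strand), the perilipin that gates hormone-driven lipolysis at the droplet surface, held 6506, 6197, 6828, 6520.5 and 6039.6 normalised counts in I172G and 2440.1, 2361, 2101, 2128 and 2152 in P223L. It held 1874, 1568, 1939, 1832 and 1753 in SAMC-null, against 4254, 5118, 3616, 5881 and 5201 in control. Every I172G library stood above every control, and every severe library stood below every control. Lsd-1 rose by 0.43 ± 0.113 on the log2 scale in I172G (SE; limma adjusted p = 0.0152). It fell in both severe lines, with a log2 fold change of -1.09 ± 0.112 in P223L (adjusted p = 1.6e-06) and -1.41 ± 0.115 in SAMC-null (adjusted p = 1.71e-07). Lsd-1 lies 1.91 Mb from the carrier gene on the same chromosome arm, and 7.3% of its exon bases overlap CG10214 on the opposite strand; what either adds to its values was not tested.

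Lsd-2 (FBgn0030608, the X chromosome from 15069127 to 15076220, minus strand), the perilipin that shields stored fat from lipases, held 6806, 7875, 6862, 6869 and 7084 normalised counts in I172G and 5904, 5788, 5794, 5931 and 6170.1 in P223L. It held 6634, 5661, 5541, 6104 and 5429 in SAMC-null, against 6844, 5814, 6353, 8086 and 6291 in control. All lines overlapped the controls, and no comparison with control was called in the main fit. Over control, Lsd-2 had a log2 fold change of 0.10 in I172G (95% confidence interval -0.09 to 0.28), -0.17 in P223L (interval -0.329 to -0.002, limma adjusted p = 0.0593) and -0.18 in SAMC-null (interval -0.365 to 0.006, adjusted p = 0.068). Its sign turned with equal library sums, to 0.25 in P223L and 0.42 in SAMC-null, both called, but not with median-ratio rescaling. Lsd-2 was called lower in both severe lines without control replicate 2 (limma adjusted p = 0.0174 in P223L and 0.0273 in SAMC-null). The same held with all 4 groups in 1 fit (adjusted p = 0.0382 and 0.0249), and in SAMC-null without its replicate 1 (0.0308). The ratio of Lsd-1 to Lsd-2 within a library does not depend on scaling. It was 0.908 ± 0.086 in I172G, 0.378 ± 0.030 in P223L, 0.306 ± 0.030 in SAMC-null and 0.725 ± 0.132 in control (SD, n = 5), and the severe lines overlapped each other but neither control nor I172G. This ratio is a description of a chosen pair.

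mdy (FBgn0004797, chromosome arm 2L from 16816660 to 16826964, plus strand) encodes midway, a diacylglycerol acyltransferase that makes triglyceride. I172G larvae held 1763, 1833, 1657, 1776 and 1265 normalised counts and P223L larvae 1165, 1253, 1023, 1060.2 and 1073. SAMC-null larvae held 658, 577, 632, 599 and 512, against 1364, 1394, 1313, 1423 and 1312 in control larvae. All severe libraries were below all controls and SAMC-null was below P223L without overlap, whereas in I172G 4 libraries were above all controls and replicate 5 was below them. mdy fell in SAMC-null with a log2 fold change of -1.20 ± 0.066 over control (SE; limma adjusted p = 4.65e-09). Its log2 fold change of -0.29 ± 0.060 in P223L was called (adjusted p = 0.000702), but with equal library sums it was 0.12 (adjusted p = 0.0842). In I172G it was 0.27 ± 0.093 (adjusted p = 0.0435), a call lost in 8 of the 10 fits that left out a library, with adjusted p of up to 0.0992 in these.

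FASN1 and ACC, the fatty acid synthesis genes among the 10, both fell in both severe lines. FASN1 (FBgn0027571 in the tables, FBgn0283427 in the annotation, chromosome arm 2L from 3056598 to 3068177, plus strand) is the main fatty acid synthase of the fat body. I172G larvae held 113673, 123752, 88491, 89574 and 63303 normalised counts and P223L larvae 33750.4, 35813, 33272, 34317 and 29618. SAMC-null larvae held 21755, 21482, 21226, 22866 and 21599, against 80766, 90148, 65841, 104594 and 114100 in control larvae. Every severe library was below every control and I172G library, and I172G overlapped control. FASN1 had a log2 fold change over control of -1.43 ± 0.128 in P223L (SE; limma adjusted p = 4.59e-07) and -2.04 ± 0.123 in SAMC-null (adjusted p = 1.02e-08), so that control held 4.11 times the level of SAMC-null. In I172G it was 0.06, which was not called (95% confidence interval -0.36 to 0.48).

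ACC (FBgn0033246, chromosome arm 2R from 7974115 to 7991862, minus strand), acetyl-CoA carboxylase, supplies the malonyl-CoA that FASN1 elongates. I172G larvae held 16101, 19052, 14455, 12900.4 and 8057 normalised counts and P223L larvae 10682, 11354, 10808, 11536 and 10444. SAMC-null larvae held 8861, 9981, 9400.3, 10001 and 9391, against 15792, 19626, 15901, 18291 and 19187 in control larvae. The severe lines were below all controls, and I172G replicate 5 was below every other library of the 4 groups. ACC fell with a log2 fold change of -0.69 ± 0.068 in P223L (SE; limma adjusted p = 1.11e-06) and -0.89 ± 0.069 in SAMC-null (adjusted p = 9.94e-08). In I172G the log2 fold change of -0.38 was not called (95% confidence interval -0.80 to 0.03, adjusted p = 0.141), and without replicate 5 it was -0.19. FASN1 stood at 6.12 to 7.86 times ACC in I172G libraries, 2.84 to 3.16 times in P223L, 2.15 to 2.46 times in SAMC-null and 4.14 to 5.95 times in control. These ratios of gene totals, not adjusted for length, did not overlap between any 2 groups. They describe a chosen pair, and how many other pairs of genes separate the groups was not counted.

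**Figure D2:**
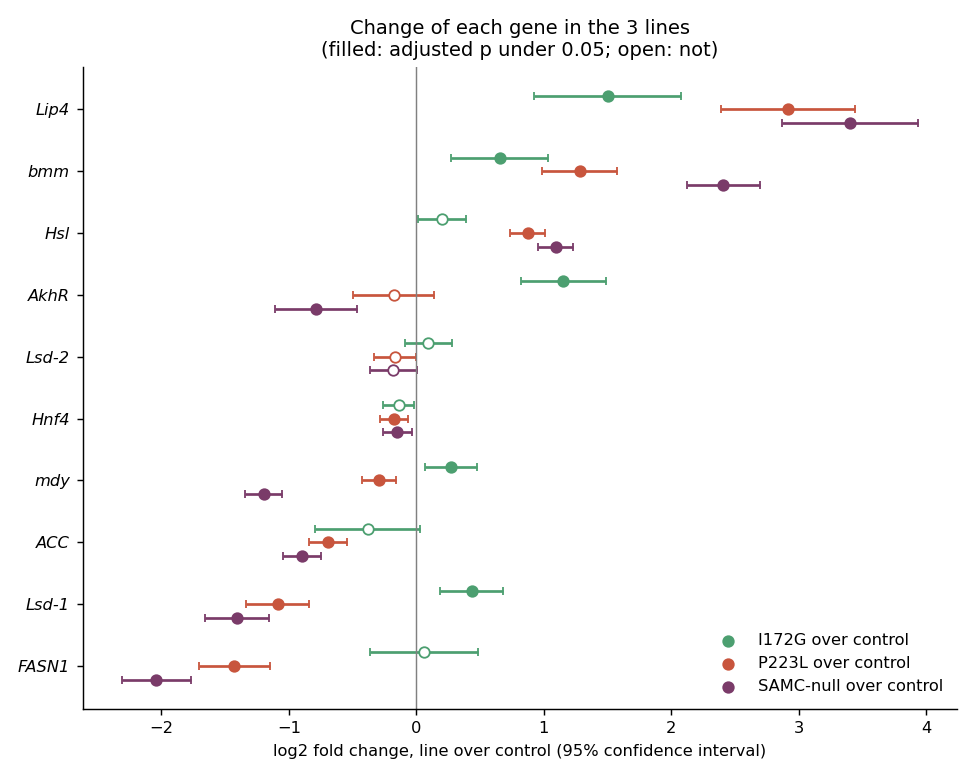
The log2 fold change over control (x axis) of each gene (y axis) in I172G, P223L and SAMC-null, with 95% confidence intervals; filled points have an adjusted p under 0.05. Lip4 reached 3.40 and FASN1 -2.04 in SAMC-null, and AkhR and Lsd-1 lay on opposite sides of 0 in I172G and SAMC-null. Lsd-2 and Hnf4, whose sign in the severe lines turns with equal library sums, stayed near 0.

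AkhR (FBgn0025595, chromosome arm 2L from 6711286 to 6716186, minus strand), the fat body receptor of adipokinetic hormone, was higher in I172G than in any other group. I172G larvae held 1010.3, 999, 1274, 1073 and 1091 normalised counts and P223L larvae 428, 489, 404, 413 and 425. SAMC-null larvae held 307, 247, 290.0, 287 and 279.6, against 438, 503, 339, 645 and 569.8 in control larvae. Every I172G library was above all others, every SAMC-null library was below all others, and P223L overlapped control. AkhR rose 2.22-fold in I172G over control (log2 fold change 1.15 ± 0.151, SE; limma adjusted p = 0.000484). It fell in SAMC-null by the main scaling (log2 fold change -0.79 ± 0.147, adjusted p = 0.000307), while equal library sums gave -0.19, which was not called (adjusted p = 0.268). In P223L its log2 fold change of -0.18 was not called (95% confidence interval -0.49 to 0.14), and equal sums gave 0.23. Without control replicate 3 the P223L value was -0.31 and was called (adjusted p = 0.0201).

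Hnf4 (FBgn0004914, chromosome arm 2L from 8687226 to 8709611, minus strand), the nuclear receptor that senses fatty acids and drives their oxidation, was nearly level. I172G larvae held 2569, 2651, 2551, 2640.1 and 2447 normalised counts and P223L larvae 2472, 2622, 2469, 2485 and 2520.5. SAMC-null larvae held 2393, 2571, 2646, 2633 and 2542, against 2788, 2583, 3079, 2937 and 2792 in control larvae. All lines overlapped control. Hnf4 had a log2 fold change over control of -0.14 in I172G (limma adjusted p = 0.0708, not called, though -0.17 and called with equal library sums), -0.17 in P223L (adjusted p = 0.00708) and -0.15 in SAMC-null (adjusted p = 0.018). Equal library sums turned the severe lines to 0.24 and 0.46, both of them called as higher.

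Counted over the 10 genes, 5 were called higher and 0 lower in I172G against control, where 32.2% of the 12253 genes tested were called in either direction and 14.6% were called higher. In P223L, 3 were higher and 5 lower, where 78.7% of tested genes were called, 36.3% higher and 42.4% lower. In SAMC-null, 3 were higher and 6 lower, against 81.7% of tested genes called, 38.2% higher and 43.5% lower. The counts of the severe lines are near that background. With equal library sums the split was 4 higher and 1 lower in I172G, 5 higher and 3 lower in P223L, and 5 higher and 4 lower in SAMC-null. With all 4 groups in 1 fit it was 6 higher and 2 lower in I172G, where ACC and Hnf4 were called lower and Hsl higher. By size, 2 of the 10 genes differed from control at least 2-fold in I172G, 4 did so in P223L and 6 in SAMC-null, where 9.3%, 37.1% and 40.8% of all tested genes did so. In the authors' deposited table, whose test is against a 2-fold change, the adjusted p was under 0.05 for Lip4 (2.53e-20) and FASN1 (0.0102) in P223L. In SAMC-null the authors' deposited table had Lip4 (2.84e-32), bmm (6.81e-23), FASN1 (2.88e-12) and Lsd-1 (0.000112) under it, and in I172G it had none of the 10.

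P223L and SAMC-null share the severe label, and the direct test between them compares an allele with a changed amino acid with a null allele. It was called for 5 genes higher and 3 lower in P223L, where 47.4% of the 11168 tested genes were called, 22.4% higher and 25.1% lower. With equal library sums the split was 3 higher and 5 lower. bmm was lower in P223L, with a log2 fold change of -1.13 ± 0.054 over SAMC-null (SE; limma adjusted p = 2.06e-10), a larger size than that of 96.3% of tested genes. mdy was higher in P223L by 0.91 ± 0.070 (adjusted p = 4.75e-08), a larger size than that of 94.7%. In bmm, mdy and each of the other fat genes called here, all 5 P223L libraries lay beyond all 5 of SAMC-null. How many of all tested genes separate in this way was not counted. FASN1 was 0.61 ± 0.045 (adjusted p = 3.14e-08) and AkhR 0.61 ± 0.070 (adjusted p = 3.88e-06), both higher in P223L under either scaling. Lip4 was lower in P223L with -0.48 ± 0.033 (adjusted p = 1.03e-08) and Hsl with -0.22 ± 0.039 (adjusted p = 0.000275). Lsd-1 was 0.32 and ACC 0.20 in P223L over SAMC-null, and neither call held with equal library sums. The other 2 were not called, with 95% confidence intervals of -0.09 to 0.12 for Lsd-2 and -0.10 to 0.05 for Hnf4, and equal sums gave -0.18 and -0.22, both called.

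**Figure D3:**
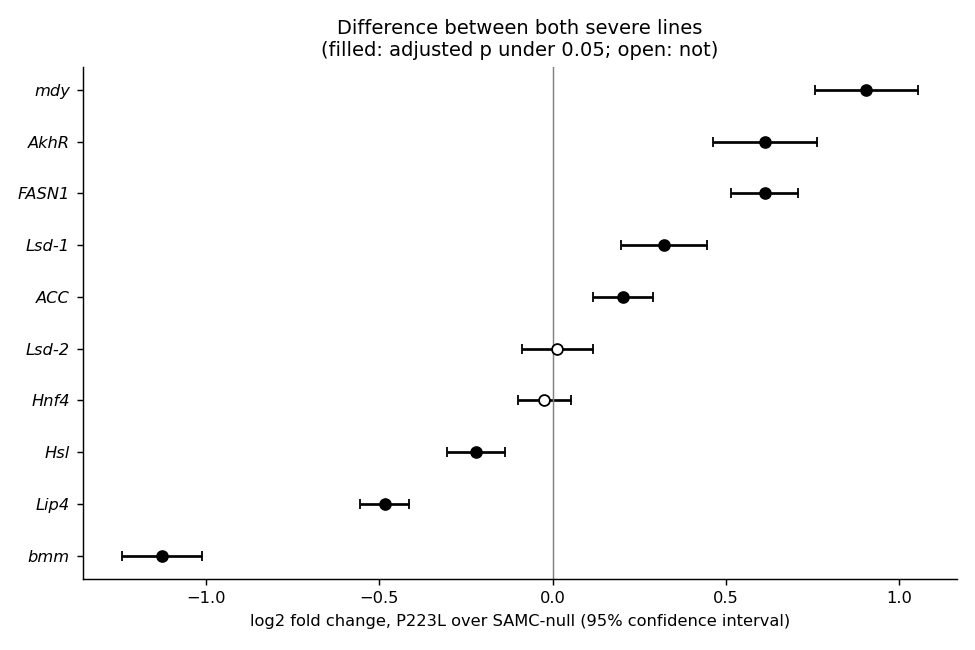
The log2 fold change of P223L over SAMC-null (x axis) for each gene (y axis), with 95% confidence intervals; filled points have an adjusted p under 0.05. mdy, at 0.91, lies farthest on the P223L side and bmm, at -1.13, farthest on the SAMC-null side, while the intervals of Lsd-2 and Hnf4 cross 0. With equal library sums Lsd-2 was -0.18 and Hnf4 -0.22, both called, and Lsd-1 and ACC were not called.

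The ratio of bmm to mdy, a lipase gene over a triglyceride-making gene, does not depend on the scaling between libraries. It was chosen after the values were seen and is a description. Its range was 0.673 to 1.56 in I172G, 1.81 to 2.49 in P223L, 7.62 to 10.5 in SAMC-null and 0.542 to 0.958 in control. The means were 0.999 ± 0.344, 2.21 ± 0.321, 9.02 ± 1.19 and 0.747 ± 0.152 in the same order (SD, n = 5). SAMC-null overlapped no other group, P223L overlapped no other group, and I172G overlapped control. bmm over Hsl, by contrast, had a range of 1.76 to 2.35 in I172G and 1.81 to 2.19 in P223L, which overlapped, and of 3.46 to 4.12 in SAMC-null, above every library of the other groups, against 1.21 to 2.24 in control.

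**Figure D4:**
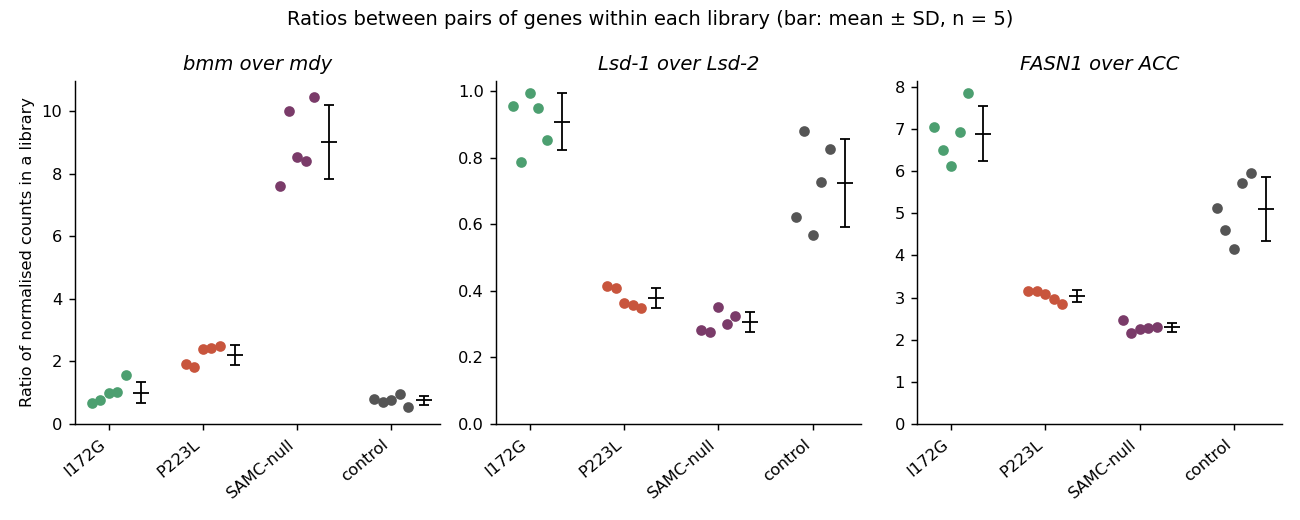
Ratios of normalised counts within each library (y axis, linear from 0) for 3 pairs of genes, in I172G, P223L, SAMC-null and control (x axis); points are libraries and bars are mean ± SD (n = 5). bmm over mdy stands at 7.62 to 10.5 in SAMC-null, above all other groups, while Lsd-1 over Lsd-2 and FASN1 over ACC have their lowest means there.

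The mild line was also set directly against each severe line. I172G differed from P223L in 8 of the 10 genes, 5 higher and 3 lower, where 80.8% of tested genes were called, 42.9% higher and 38.0% lower. It differed from SAMC-null in 9 genes, 6 higher and 3 lower, where 82.8% were called, 43.1% higher and 39.7% lower. The lipases were the 3 lower genes in both comparisons. With equal library sums the split was 3 higher and 5 lower against P223L, and 4 higher and 5 lower against SAMC-null, and ACC, Lsd-2 and Hnf4 changed sign in both. Lsd-1 was 1.52 ± 0.054 higher on the log2 scale in I172G than in P223L (SE; limma adjusted p = 5.4e-11), FASN1 1.49 ± 0.149 (adjusted p = 9.65e-07) and AkhR 1.33 ± 0.076 (adjusted p = 4.29e-09). Against SAMC-null the same genes had log2 fold changes of 1.84, 2.10 and 1.94, and in all 3 no I172G library overlapped either severe line. ACC was not called between I172G and P223L (log2 fold change 0.31, adjusted p = 0.121), but without I172G replicate 5 it was 0.50 and was called (adjusted p = 0.000262). That library had the lowest value of its group for Lsd-1, mdy, ACC, FASN1 and Hnf4, and the highest for bmm, Hsl and Lip4.

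Per kilobase of exon, which allows levels of different genes to be compared, FASN1 was the most abundant of the 10 in every group, with mean normalised counts of 10950 per kilobase in I172G, 3815 in P223L, 2491 in SAMC-null and 10420 in control. In SAMC-null bmm came next, at 2183 per kilobase, above Lip4 at 1498, Lsd-2 at 1277, ACC at 1051 and Lsd-1 at 915. In control bmm stood at 419 per kilobase and Lip4 at 153, below Lsd-1 at 2456, ACC at 1959 and Lsd-2 at 1452. P223L lay between, with bmm at 1001 and Lip4 at 1070 beside Lsd-1 at 1141. AkhR was the least abundant in SAMC-null at 88.7 per kilobase. Lengths were merged exons of the annotation, not the isoforms in use.

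Over the 20 libraries and 10299 genes, the gene whose pattern on the log2 scale was most like that of each of the 10 was named by Pearson's r, as a description in which the libraries share groups and scaling. It was Lpin for bmm (r = 0.981), dia for Hsl (r = 0.991), GIIIspla2 for Lip4 (r = 0.982), Nmt for Lsd-1 (r = 0.992) and ATPsynD for mdy (r = 0.975). It was CG33523 for FASN1 (r = 0.985), CG8630 for ACC (r = 0.947), RnrL for AkhR (r = 0.968), CG12746 for Hnf4 (r = 0.895) and CG8314 for Lsd-2 (r = 0.883). Lpin encodes lipin, the phosphatidate phosphatase that makes the diacylglycerol used by mdy. Its level was 4939 ± 126 normalised counts in I172G, 6292 ± 208 in P223L, 9549 ± 554 in SAMC-null and 3855 ± 375 in control (SD, n = 5). The log2 fold change of Lpin over control ran from 0.36 for I172G through 0.71 for P223L to 1.31 for SAMC-null. Lpin was picked for its likeness to bmm over these same libraries. Its rise alongside bmm therefore follows from that choice and is no separate evidence.

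Other genes of the same pathways were counted in 10 lists, from which 84 genes besides the 10 were tested. In I172G 18 were higher and 18 lower than control, in P223L 36 were higher and 39 lower, and in SAMC-null 38 were higher and 37 lower. Over all genes, 32.2%, 78.7% and 81.7% were called in those comparisons. By direction, 14.6%, 36.3% and 38.2% were higher and 17.6%, 42.4% and 43.5% lower, and the counts of each list stand beside these shares. The median log2 fold change of the 84 genes was -0.02 in I172G, where that of all genes tested was -0.03. It was 0.004 in P223L and 0.00 in SAMC-null, beside -0.06 over all genes in both. The genes named from each list are up to 3 with the smallest adjusted p in P223L, unless said otherwise.

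Of 5 further lipolysis genes, 4 were higher and 1 lower in each severe line, and 2 were higher and 2 lower in I172G. Equal library sums left the severe counts as they were and gave 1 higher and 2 lower in I172G. CG5966, a predicted triglyceride lipase, held 347 to 1135 normalised counts in I172G, 2608 to 3128 in P223L and 3792 to 5138 in SAMC-null, against 136 to 364 in control. It was called higher in all 3 lines, with log2 fold changes of 1.33, 3.91 and 4.44 in that order. puml (pummelig), an alpha/beta hydrolase that limits triglyceride storage, rose by 2.02 ± 0.055 in P223L and 2.32 ± 0.054 in SAMC-null (SE), and fell by 0.39 in I172G. dob, the closest relative of bmm, went the other way, with 21.6 to 40.3 normalised counts in P223L and 21.6 to 37.0 in SAMC-null, against 439.6 to 580.5 in control, log2 fold changes of -4.04 and -4.04. Lip3, an acid lipase gene raised by starvation in flies, was added after its values were seen. It held 38.4, 34.7, 51.8, 48.9 and 149.9 normalised counts in I172G and 1584, 1696, 1549.8, 1637 and 1978 in P223L. It held 3363, 3968, 4219, 3957 and 4259.6 in SAMC-null, against 1395, 550.3, 2744, 125 and 237 in control. The controls were the most spread group and overlapped I172G and P223L but not SAMC-null. Lip3 fell in I172G (log2 fold change -3.36 ± 0.751, SE; limma adjusted p = 0.00798) and rose in SAMC-null (2.77 ± 0.672, adjusted p = 0.00214). In P223L its log2 fold change was 1.55 ± 0.667 (adjusted p = 0.0495), a call lost without any 1 of the 5 P223L libraries or control replicate 2, 4 or 5, with adjusted p of up to 0.121.

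Among 5 further droplet genes, 0 were higher and 4 lower in P223L, and 1 was higher and 2 lower in SAMC-null, while equal library sums gave 3 higher and 1 lower in each. Without P223L replicate 3 the P223L count was 1, and in I172G 0 were higher and 3 lower. Jabba, which anchors histones on droplets, was lower in all 3 lines: I172G held 2564 ± 344 normalised counts, P223L 2393 ± 106, SAMC-null 1271 ± 84.95 and control 3589 ± 358 (SD, n = 5). Its log2 fold change was -0.49 in I172G and -0.58 in P223L, which lay close, but -1.49 in SAMC-null, and P223L exceeded SAMC-null by 0.91 ± 0.048 (SE; limma adjusted p = 7.22e-10). Cds and Pcyt1, of phospholipid synthesis, had log2 fold changes of -0.17 and -0.16 in P223L, called, and of 0.25 each with equal library sums. Both calls were lost without P223L replicate 3 (adjusted p = 0.0512 and 0.0567), and that of Pcyt1 also without control replicate 2 (0.0547). Pcyt1 fell in I172G, to 2108 ± 134 normalised counts, against 3828 ± 297 in control (log2 fold change -0.86 ± 0.067, SE; adjusted p = 1.84e-05).

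Of 11 further triglyceride synthesis genes, 4 were higher and 6 lower in each severe line, and 1 was higher and 3 lower in I172G. Dgat2, an acyltransferase that makes triglyceride in parallel with mdy, held 313, 329, 296, 299 and 295 normalised counts in I172G and 123, 95.1, 81.2, 97.1 and 94.3 in P223L. It held 44.8, 25.5, 45.3, 34.1 and 51.1 in SAMC-null, against 474, 432, 469.7, 471 and 436 in control, and no 2 groups overlapped. Dgat2 had a log2 fold change of -0.57 ± 0.065 in I172G (SE; limma adjusted p = 0.000191), -2.22 ± 0.105 in P223L (adjusted p = 1.41e-09) and -3.51 ± 0.165 in SAMC-null (adjusted p = 1.08e-09), and P223L exceeded SAMC-null by 1.30 ± 0.179 (adjusted p = 2.56e-05). Agpat3, an acyltransferase of an earlier step, fell in both severe lines (-0.90 and -0.97). Gk1, a glycerol kinase, rose in both (1.22 in P223L and 1.14 in SAMC-null). Gpdh1, which makes glycerol phosphate and was added after its values were seen, fell with log2 fold changes of -0.82 ± 0.090 in P223L and -1.43 ± 0.081 in SAMC-null (SE).

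Of 10 further fatty acid synthesis genes, 3 were higher and 6 lower in P223L and 2 were higher and 7 lower in SAMC-null, while equal sums gave 4 higher and 6 lower, and 3 higher and 5 lower. In I172G 1 was higher and 4 lower, and 3 in all were called without I172G replicate 1 or 4, or control replicate 1, 2, 3 or 5. FASN2 and FASN3, fatty acid synthases of the oenocytes that also served as oenocyte markers, fell with FASN1. FASN2 held 1377 ± 78.2 normalised counts in P223L and 1004 ± 29.4 in SAMC-null, against 2647 ± 272 in control (SD, n = 5), log2 fold changes of -0.94 and -1.39. FASN3 had log2 fold changes of -1.07 and -1.43, and both genes were higher in P223L than in SAMC-null (0.45 for FASN2 and 0.36 for FASN3). SREBP, the transcription factor that drives these genes, rose instead: 10624 ± 278 normalised counts in P223L and 13606 ± 445 in SAMC-null, against 6489.9 ± 359 in control, with log2 fold changes of 0.71 ± 0.046 (SE; limma adjusted p = 2.16e-08) and 1.07 ± 0.046 (adjusted p = 4.79e-10). ATPCL, which supplies cytosolic acetyl-CoA, and Desat1, which desaturates the products, were added after their values were seen. Both fell in the severe lines, ATPCL with -0.93 in P223L and -1.20 in SAMC-null, Desat1 with -0.78 and -1.07.

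**Figure D5:**
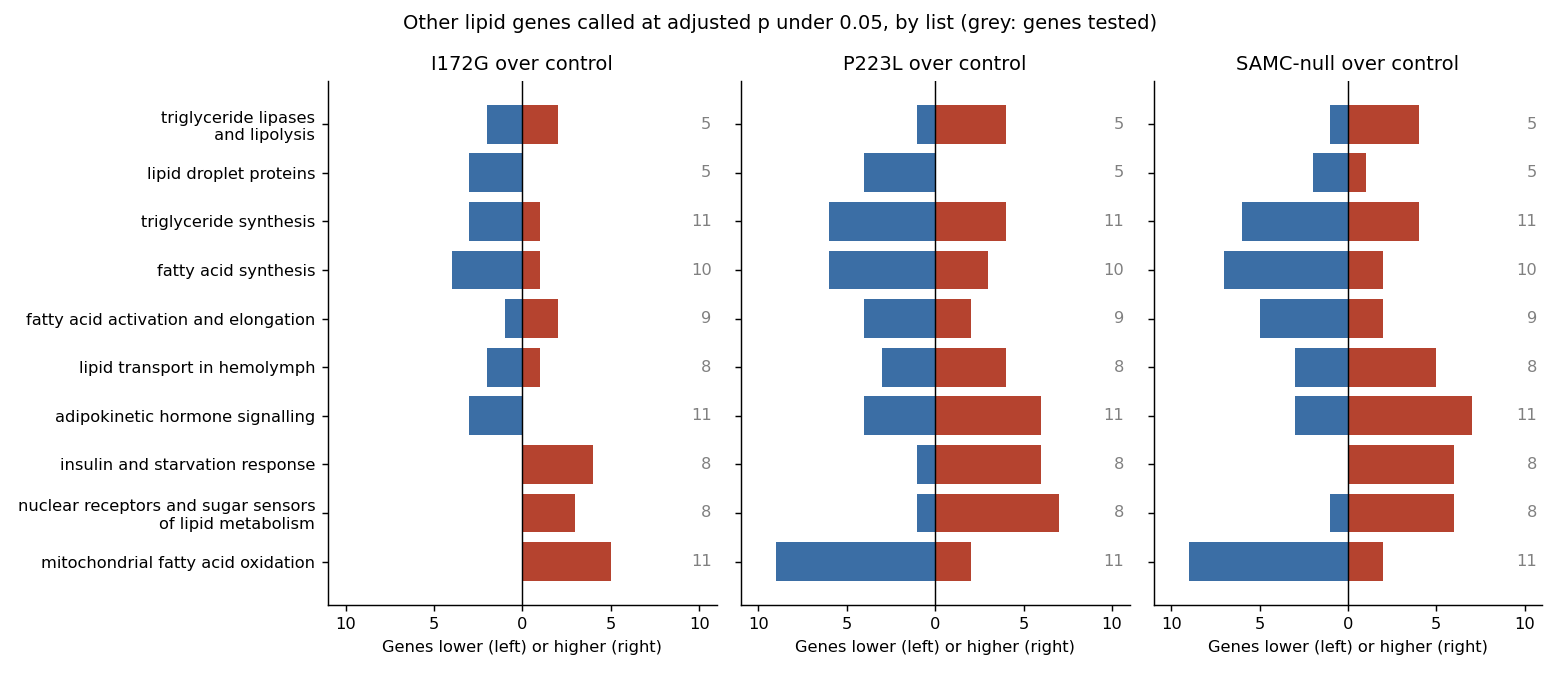
Number of genes besides the 10, by list (y axis), called lower (bars to the left) or higher (bars to the right) than control at an adjusted p under 0.05 in I172G, P223L and SAMC-null; grey numbers give the genes tested. Mitochondrial fatty acid oxidation has 9 of 11 lower genes in both severe lines and 0 lower in I172G, and with equal library sums 3 lower in P223L and 4 lower in SAMC-null. Among all tested genes, 42.4% were lower in P223L, 43.5% in SAMC-null and 17.6% in I172G by the authors' scaling.

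Of 9 tested genes of fatty acid activation and elongation, 2 were higher and 4 lower in P223L and 2 were higher and 5 lower in SAMC-null, while equal sums gave 4 higher and 4 lower in each. In I172G 2 were higher and 1 lower, and 2 of each with equal sums. fabp, a fatty acid binding protein, fell to 3422 ± 249 normalised counts in P223L and 2481 ± 99.2 in SAMC-null, against 35656 ± 6608 in control (SD, n = 5), log2 fold changes of -3.37 and -3.83. Acbp2, an acyl-CoA binding protein, fell with -2.49 and -2.55. hll, an acyl-CoA synthetase gene, held 53.7, 163, 121, 143 and 476 normalised counts in I172G, 131 to 177 in P223L and 112 to 225 in SAMC-null, against 3.42, 11.7, 17.6, 52.0 and 8.47 in control. It was called higher in all 3 lines, with log2 fold changes of 3.43 ± 0.661, 3.45 ± 0.502 and 3.53 ± 0.517 in that order (SE).

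The list of lipid transport in the hemolymph, the blood of the fly, held 8 genes, and the gut lipase mag was counted among them. Of these, 4 were higher and 3 lower in P223L and 5 were higher and 3 lower in SAMC-null, with mag among the lower in both. In I172G 1 was higher and 2 lower, and 1 and 4 with equal sums. mag (magro), a lipase secreted into the gut, held 57823 to 71516 normalised counts in I172G, 4083 to 5024 in P223L and 4749 to 6021 in SAMC-null, against 101559 to 115084 in control. Its log2 fold change was -4.63 in P223L and -4.35 in SAMC-null. There 6 of 7 and 5 of 7 midgut markers were lower and 1 was higher in each. Their part in the fall of mag was not tested. Mtp, which loads lipid onto lipoproteins, fell with -1.77 and -2.04. apolpp, the lipophorin precursor and one of the 7 fat body markers, was added after its values were seen and fell with -1.71 ± 0.081 in P223L and -2.83 ± 0.080 in SAMC-null (SE). P223L kept 2.19 times the apolpp level of SAMC-null (limma adjusted p = 9.41e-11). NLaz, a lipocalin tied to stress and lipid stores, rose in all 3 lines, with a log2 fold change of 1.46 in I172G and larger ones of 3.52 in P223L and 3.44 in SAMC-null.

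Of 11 further genes of adipokinetic hormone signalling, 6 were higher and 4 lower in P223L, 7 were higher and 3 lower in SAMC-null, and 0 were higher and 3 lower in I172G, while equal sums gave 8 higher and 2 lower in P223L and 10 higher and 1 lower in SAMC-null. The I172G count was 1 without control replicate 1, 2 or 3, and 5 with equal sums. Akh, the hormone itself, was added after its values were seen. It held 37.4, 38.2, 24.7, 30.0 and 34.9 normalised counts in I172G and 61.9, 54.6, 31.5, 42.1 and 67.5 in P223L. It held 127, 152, 100.4, 91.5 and 128 in SAMC-null, against 40.1, 22.5, 37.6, 39.4 and 33.1 in control. Akh rose in SAMC-null (log2 fold change 1.77 ± 0.193, SE; limma adjusted p = 2.61e-06), where AkhR was at its lowest, and P223L was below SAMC-null by the direct test (-1.23 ± 0.196, adjusted p = 0.000103). In P223L it was not called against control (95% confidence interval 0.02 to 1.06, adjusted p = 0.0537), though it was without P223L replicate 3 (log2 fold change 0.70) or control replicate 4 (0.60), and with equal library sums (0.94). Akh is also 1 of the 2 markers of the corpora cardiaca, the gland that secretes it. The other, gl, was lower in both severe lines, at 10.6 ± 3.02 normalised counts in P223L and 9.79 ± 2.76 in SAMC-null, against 47.4 ± 13.8 in control (SD, n = 5). Whether gl or Akh follows the amount of this gland in whole larvae was not tested. amon, a convertase that processes peptide hormones, rose with 1.89 in P223L and 2.28 in SAMC-null. In each of these lines 5 of 6 neuron markers were also higher, and their part in the rise of amon was not tested. HDAC4, a histone deacetylase that acts with foxo on lipase genes in fasting flies, rose with 0.72 and 0.80. Pka-R1, the regulatory subunit of protein kinase A, fell with -0.77 and -1.07.

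Of 8 genes of insulin signalling and the response to starvation, 6 were higher in each severe line, with 1 lower in P223L and 0 lower in SAMC-null, and 4 were higher and 0 lower in I172G. Equal sums gave 7 higher and 0 lower in each severe line, and the I172G count was 2 without I172G replicate 2, 3 or 5, or control replicate 1, 2, 3 or 5. InR, the insulin receptor and a gene that foxo activates when insulin is low, held 15073 to 17842 normalised counts in P223L and 19562 to 21337 in SAMC-null, against 1352 to 2454 in control, log2 fold changes of 3.14 ± 0.150 and 3.47 ± 0.146 (SE). Thor, the translation repressor of the insulin pathway and another foxo target, rose with 2.12 in P223L and 2.29 in SAMC-null. foxo itself rose with 0.42 and 0.51. In I172G, InR, Thor and foxo were not called against control. They held 1501 ± 282, 828 ± 174 and 2462 ± 165 normalised counts in I172G. The control levels were 1922 ± 504, 841 ± 318 and 2415 ± 245 (SD, n = 5). The 95% confidence intervals of the log2 fold changes of InR, Thor and foxo were -0.72 to 0.05, -0.52 to 0.61 and -0.13 to 0.20.

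Of 8 further nuclear receptors and sugar sensors, 7 were higher and 1 lower in P223L and 6 were higher and 1 lower in SAMC-null, while equal sums gave 8 higher in each. In I172G 3 were higher and 0 lower. Hr96, a receptor that controls mag and triglyceride uptake, held 3226 to 3398 normalised counts in P223L and 3098 to 3285 in SAMC-null, against 907 to 991 in control, log2 fold changes of 1.80 ± 0.042 and 1.76 ± 0.040 (SE). Eip75B, an ecdysone-induced receptor, rose with 1.496 and 1.51. bigmax, partner of the sugar sensor Mondo, rose in all 3 lines, by 0.55 in I172G on the log2 scale, 0.93 in P223L and 1.28 in SAMC-null.

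Mitochondrial fatty acid oxidation, the fate of released fatty acids, had 2 higher and 9 lower genes of 11 in each severe line, against 5 higher and 0 lower in I172G. Among all tested genes, 42.4% were lower in P223L and 43.5% in SAMC-null, and 14.6% were higher in I172G. Equal library sums left 3 lower in P223L and 4 lower in SAMC-null, with 2 higher in both. Echs1, an enoyl-CoA hydratase, had log2 fold changes of -0.95 ± 0.048 in P223L and -1.32 ± 0.043 in SAMC-null, and Arc42, an acyl-CoA dehydrogenase, of -0.72 ± 0.065 and -0.998 ± 0.067 (SE). whd, carnitine palmitoyltransferase and the entry step, moved the other way. It held 2565, 2566, 3618, 3368 and 5024 normalised counts in I172G, 5277 to 5996 in P223L and 5274 to 5760.1 in SAMC-null, against 1628 to 2499.9 in control. Its log2 fold change was 0.69 ± 0.189 in I172G (limma adjusted p = 0.0188), 1.47 ± 0.112 in P223L (adjusted p = 9.66e-08) and 1.40 ± 0.111 in SAMC-null (adjusted p = 1.3e-07), and every library of the 3 lines was above every control.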

How the data were processed

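Per the labels' protocols, RNA came from whole larvae, ribosomal RNA was removed and both ends of fragments were read. The submitters' processing notes name Salmon 0.11.3, DESeq2 1.26.0 and BDGP6, used by the authors. The deposited tables, 1 for each line against control, hold normalised counts (a signal per gene and library, scaled between libraries by the authors), the authors' log2 fold changes and adjusted p-values, and a test statistic and weight (scores from the authors, used here only to see which null hypothesis was tested). The control columns differ by at most 0.005 between the tables, and the deposited mean of each gene is that over the 20 libraries, which points to 1 common scaling. The read depth stated in the labels is far below the sums of the deposited counts, so depth is treated as unknown and no counting interval is given.

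Each comparison was fitted on its 10 libraries with limma 3.58.1 (intensity trend, R 4.3.3) on log2(value + 1), for genes that reached 10 in no fewer than 5 of these. Such fold changes understate changes of low genes. Two-sided p-values were adjusted (Benjamini-Hochberg) across every gene of a fit, with a threshold of 0.05, and confidence intervals are at 95%. The fit was tested on simulated data. The genes, lists and tests were chosen with earlier results of these data known. The genes named were the 10, up to 3 per list by adjusted p in P223L against control, the nearest pattern to each of the 10 among genes with a mean of at least 50, and the carrier gene; others are marked in the text. Symbols and coordinates follow Ensembl release 115 (BDGP6.54), in which 13854 identifiers matched. Equal replicate numbers did not pair the libraries: same-numbered deviations had r of -0.15 to 0.187. Python 3.11.15 (numpy 2.4.6, pandas 2.3.3) made the tables, and matplotlib 3.10.9 the plots.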

Additional observations from a re-analysis of the deposited data

Results flagged for a closer look

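In 12 of 200 combinations of gene and group, 1 library stood apart from the other 4 by more than Dixon's limit, which chance passes in about 1 in 20. Among the 10 genes these were Lsd-2 in I172G (7875 in replicate 2, the others lying at 6806 to 7084 normalised counts) and AkhR in P223L (489 in replicate 2, the others lying at 404 to 428). I172G replicate 1 stood apart for CG5966 (1135 in replicate 1, the others lying at 347 to 401) and for NLaz (443 in replicate 1, the others lying at 118 to 178), and I172G replicate 5 for hll (476 in replicate 5, the others lying at 53.7 to 163) and Lip3 (149.9 in replicate 5, the others lying at 34.7 to 51.8). For Lpin, I172G had 4720.5 in replicate 4, the others lying at 4958 to 5039.7. SAMC-null stood apart for CG5966 (5138 in replicate 1, the others lying at 3792 to 3948), for amon (1699 in replicate 4, the others lying at 1837 to 1887) and for Desat1 (20141 in replicate 1, the others lying at 18079 to 18633). In control, mag had 101559 in replicate 4, the others lying at 112245 to 115084, and Lpin had 4518 in replicate 4, the others lying at 3613 to 3768.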

How the results depend on the processing

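Of 1170 refits of the 60 fold changes (10 genes in 6 comparisons), 1072 kept their direction and their side of the threshold. A test against a 2-fold change (limma's treat) lowered the genes called against control to 61 (I172G), 3468 (P223L) and 3893 (SAMC-null), to 192 in P223L against SAMC-null, and to 3512 and 3913 in I172G against P223L and SAMC-null, and the authors' adjusted p gave 139, 3786 and 4163 against control, where the main counts were 3940, 9606, 10006, 5298, 9725 and 10007. Of the 10 genes, treat called against control 0 (I172G), 2 (P223L) and 5 (SAMC-null), 0 in P223L against SAMC-null and 4 in I172G against P223L, the authors' adjusted p called 0, 2 and 4 against control, and all 4 groups in 1 fit called 8 in I172G against control. Equal library sums reversed 13 of the 60 fold changes. These were Lsd-2 (0.25), mdy (0.12), AkhR (0.23) and Hnf4 (0.24) in P223L against control, and Lsd-2 (0.42) and Hnf4 (0.46) in SAMC-null, beside Cds and Pcyt1 (both 0.25) in P223L. The others were Lsd-2 (-0.18) in P223L against SAMC-null, Lsd-2 (-0.18), ACC (-0.13) and Hnf4 (-0.41) in I172G against P223L, and Lsd-2 (-0.36), ACC (-0.12) and Hnf4 (-0.62) in I172G against SAMC-null, where median-ratio rescaling gave -0.00 for Hnf4. Equal library sums moved the calls over all genes to 6689 higher and 3475 lower in P223L and 7452 higher and 3241 lower in SAMC-null, against 4435 and 5171, and 4677 and 5329, by the authors' scaling. Leaving out 1 library at a time gave -0.05 to 0.20 for FASN1 in I172G against control, -0.01 to 0.06 for Lsd-2 in P223L against SAMC-null and -0.02 to 0.03 for Hnf4 in I172G against SAMC-null, none called. It gave 2740 to 5049 called genes in I172G against control, and 4 to 5 of the 10. Lip4 and ACC lost their call between P223L and SAMC-null with all 4 groups in 1 fit (adjusted p of 0.0653 and 0.295), and so did CG5966 (0.134) and Lip3 (0.103). The cause of these shifts was not tested. Replicate number as a block, which does not pair these libraries (0 or 1 of 5 pairs over 0.1), changed 1 call of the 10 genes (Lsd-2 in SAMC-null against control, adjusted p = 0.0251), and the call of whd in I172G was lost under it (adjusted p = 0.0631).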
